A study of Caenorhabditis elegans with 51 samples.

Results

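The precuticle matrix genes noah-1, noah-2, fbn-1, let-653, lpr-3 and let-4 were chosen by symbol from a list of 6, whatever their counts. Of these, 5 have a row in the count tables, out of 44200 gene IDs, and let-4 was not analysed here. The series holds 51 samples of whole Caenorhabditis elegans at the fourth larval (L4) stage, and the 35 RNA libraries were used. They ask what happens to RNA when XRN2, a nuclear 5'-3' exoribonuclease linked to transcription termination, is impaired. The 16 chromatin libraries carry no tables and were not analysed here.

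The time course compared N2 wild type (WT) with HW1660, which carries the temperature-sensitive allele xrn-2(xe31). Animals grew at 15 °C for 59 h to early L4, were moved to 26 °C and were collected every hour from 0 to 10 h, giving 1 library for each hour of each strain. The 6 h and 10 h RNA was resequenced to greater depth, so these deep libraries bring no new animals. HW2216 carries xrn-2(D234/236A)::gfp, a GFP-tagged catalytic-dead form, together with xrn-2(xe31), and was collected after 6 h and 10 h together with separate N2 animals. The labels name no promoter for this gene, and a strain with the unaltered tagged form was not analysed here. In the RNAi experiments N2 larvae were kept on xrn-2 RNAi or an empty vector from L1 until mid-L4 at 20 °C. Each treatment has 1 polyA library in this series, labelled replicate 3. Depletion of rRNA gave 1 further mock library and 2 labelled xrn-2 RNAi.

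A nematode molts by laying down a new cuticle under the old one. Before each new cuticle, epidermal cells and the cells of narrow tubes secrete a transient apical matrix, the precuticle, which shapes the tissue and is then cleared as the collagen cuticle forms. NOAH-1 and NOAH-2 are zona pellucida (ZP) domain proteins of this matrix, related to Drosophila NompA, that hold epidermis and cuticle together. FBN-1 is a fibrillin-like ZP protein that resists mechanical strain, LET-653 is a ZP protein with PAN domains that keeps narrow tubes such as the excretory duct open, and LPR-3 is a secreted lipocalin, a class of carriers of lipids. LET-4, a membrane protein with leucine-rich repeats, belongs to the same matrix. Transcripts of such genes oscillate once per larval stage.

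Gene counts per library summed to 41238235 to 57832479 in the time course, 239213652 to 253142688 in the deep libraries, 49628394 to 74356542 in the catalytic-dead experiment, 36463650 and 44605077 in polyA RNAi and 21695913 to 23817072 after rRNA depletion. Levels are gene counts scaled to the library total (CPM), and each gene is compared with itself only, because no transcript lengths were used. The xrn-2 transcript was higher in late xe31 (log2 change 0.99 ± 0.07 SE, edgeR, BH-adjusted p = 1.53e-06), which does not check an allele that acts on the protein. In polyA RNA it stood at 79.5 CPM after xrn-2 RNAi and 132.2 CPM in mock. In the catalytic-dead strain, which carries a tagged copy as well, it stood at 536.7 and 500.3 CPM, against 103.4 and 106.0 in WT. After rRNA depletion it stood at 80.2 and 68.8 CPM in the libraries labelled xrn-2 RNAi and 69.3 CPM in mock, a log2 ratio of 0.21 and -0.01, and directions drawn from these libraries rest on their labels. Of 7 epidermal markers with counts, including the adhesion gene ajm-1 and the cuticle collagen dpy-7, none was at 0 in all libraries of any group.

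In WT all 5 genes fell steeply after the shift. noah-1 stood at 1312 CPM at 0 h, 1519 at 1 h, 1138 at 2 h, 454.4 at 3 h, 97.8 at 4 h and 22.1 at 5 h. It then drifted from 17.3 CPM at 6 h through 11.3, 7.34 and 5.27 to 6.53 CPM at 10 h. The gene was therefore high in the early hours (0 to 2 h) and low in the late hours (6 to 10 h), with no overlap between these windows.

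noah-2 ran beside noah-1 until 6 h, with 1234 CPM at 0 h, 1552 at 1 h, 22.3 at 5 h and 17.2 at 6 h. After that it levelled off between 12.2 and 14.01 CPM while noah-1 went on down. In WT, noah-2 had 99.3 to 104.9 counts per 100 noah-1 counts from 1 h to 6 h, 188.8 at 8 h, 264.7 at 9 h and 214.7 at 10 h.

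fbn-1 was at its highest in the earliest library and fell sooner than the NOAH genes, from 418.8 CPM at 0 h to 162.4 at 1 h, 52.2 at 2 h, 14.2 at 3 h, 4.92 at 4 h and 1.67 at 5 h. From 5 h on it lay between 1.27 and 1.93 CPM. Within the first hour it dropped 2.58-fold, while noah-1 and noah-2 were still higher at 1 h than at 0 h.

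let-653 also started at its highest level, 245.5 CPM, and fell through 155.2, 74.3, 25.6, 9.13 and 2.69 CPM to 1.49 CPM at 6 h. It then came back to 3.63 CPM at 7 h, 7.84 at 8 h, 8.62 at 9 h and 12.4 at 10 h. Its 10 h level was 8.35-fold its lowest one, against 1.24-fold for noah-1, 1.15-fold for noah-2 and 1.26-fold for lpr-3, and fbn-1 had its lowest level at 10 h.

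lpr-3 had the widest course of the 5, from 1157 CPM at 0 h and 1272 at 1 h through 747.9, 229.1 and 49.2 to 11.2 CPM at 5 h and 0.901 CPM at 9 h. Its highest level was 1412-fold its lowest, compared with 330.6-fold for fbn-1, 288.2-fold for noah-1, 165.1-fold for let-653 and 126.9-fold for noah-2. The steepest step was 4.66-fold between 3 h and 4 h.

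**Figure D1:**
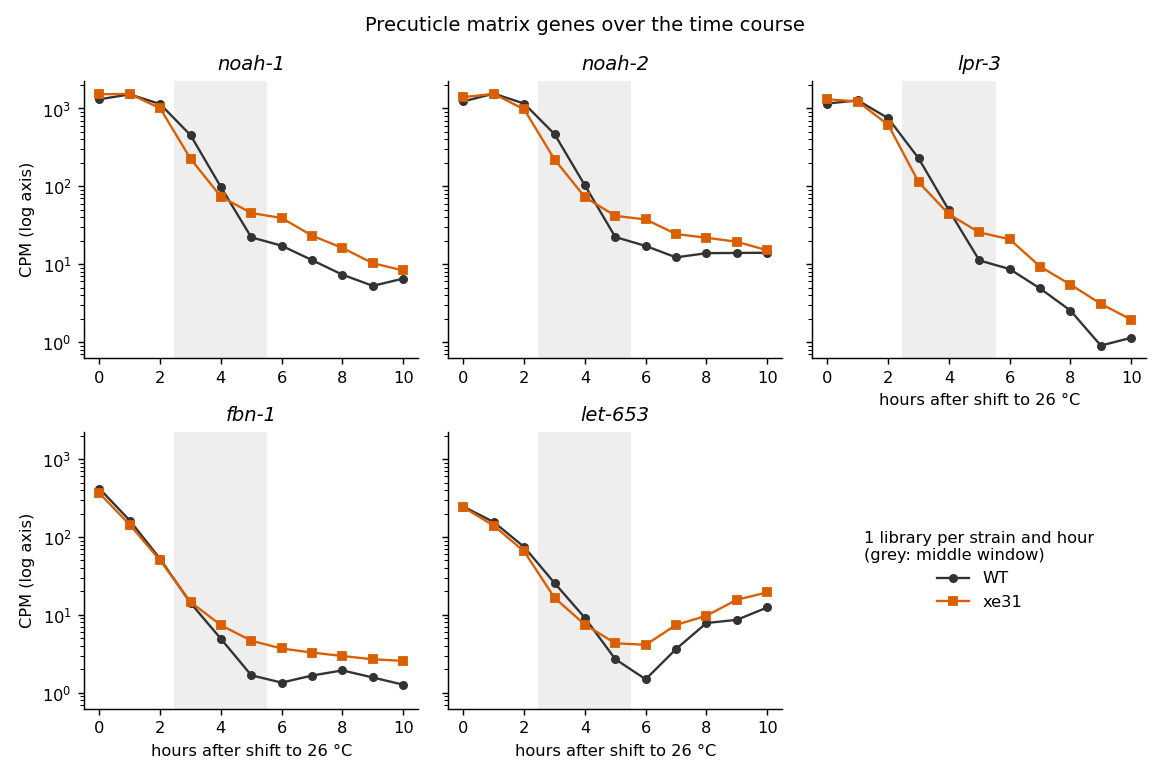
CPM (log axis) of the 5 precuticle genes against hours after the shift to 26 °C, 1 point per library, in WT (black) and xe31 (orange). Every gene falls between 0 h and 5 h, let-653 alone comes back, and xe31 lies above WT from 5 h on.

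Between the early and late windows all 5 genes fell in WT, against 29.9% of 16877 genes tested. The log2 change was -8.44 ± 1.08 (SE) for lpr-3, -7.36 ± 0.85 for noah-1, -7.32 ± 0.77 for fbn-1, -6.77 ± 0.73 for noah-2 and -4.77 ± 0.77 for let-653 (edgeR, BH-adjusted p of 4.61e-05 or less, 3 early and 5 late hours). By size of the fall lpr-3 ranked 2, noah-1 21, fbn-1 24, noah-2 56 and let-653 214 among those genes. The hours of a window stand in for replicates here, so the spread holds the course itself.

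In xe31 the same 5 genes fell, against 30.5% of genes tested, with log2 changes of -7.28 ± 1.03 for lpr-3, -6.39 ± 0.81 for noah-1, -6.22 ± 0.73 for fbn-1, -6.06 ± 0.71 for noah-2 and -4.004 ± 0.75 for let-653 (edgeR, BH-adjusted p of 0.000204 or less). From 2 h to 5 h noah-1 dropped 51.4-fold in WT and 22.1-fold in xe31. For lpr-3 these values were 66.9-fold and 24.1-fold, for noah-2 51.8-fold and 23.3-fold, for fbn-1 31.2-fold and 10.8-fold and for let-653 27.6-fold and 15.1-fold. These folds have no error, since each rests on 1 library per hour.

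The likeness of these courses was measured as Pearson's r of log2(CPM + 1) over the 11 WT libraries, among 12547 genes with a mean of at least 2 CPM. This is a description, since all points share their libraries and neighbouring hours. The genes most like noah-1 were dpy-7 (r = 0.9992), lpr-5 (0.9988) and dpy-3 (0.9986), where dpy-7 and dpy-3 encode collagens of the cuticle furrows and lpr-5 another lipocalin. In xe31 the same pairs had r of 0.9989, 0.996 and 0.998. lpr-3 was most like the related lipocalin gene lpr-4 (0.9995, and 0.9999 in xe31), dpy-3 (0.9987) and the hedgehog-related gene wrt-10 (0.9985).

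noah-2 was most like R57.2 (0.9989), F33H2.8 (0.9986) and F23H12.5 (0.9978). In xe31 F33H2.8 had r = 0.881 with noah-2, against 0.995 for R57.2 and 0.991 for F23H12.5. fbn-1 was most like the collagen col-176 (0.998), the cell fusogen aff-1 (0.994) and sucl-1 (0.993), and let-653 most like cpd-1 (0.991), C14C6.2 (0.986) and mab-21 (0.986). The value of r does not measure the size of a change. Highest and lowest WT levels were 1021 and 3.80 CPM for col-176, 34.6 and 2.51 for aff-1 and 287.2 and 180.9 for sucl-1. They were 96.7 and 15.3 CPM for cpd-1, 26.5 and 12.5 for C14C6.2 and 18.6 and 2.89 for mab-21. Among the 5 genes themselves, noah-1 and lpr-3 had r = 0.997, noah-1 and noah-2 0.993, fbn-1 and noah-1 0.926 and let-653 and noah-1 0.852.

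Gene order, taken from the RefSeq annotation of WBcel235 for neighbours only, puts lpr-3 next to lpr-6 and lpr-5, the protein-coding genes that follow it. These neighbours shared its course, with r = 0.997 for both in WT, peaks at 1 h of 434.5 CPM for lpr-6 and 778.8 CPM for lpr-5, and lowest levels of 0.607 and 1.08 CPM. C09F12.2, the gene before lpr-3, had r = 0.65 and its highest level at 0 h, and clc-1 before it r = -0.34. Of the 16 genes in the 2 places on either side of the other 4 genes, none exceeded r = 0.71, which VZK822L.2 near let-653 had with a peak at 2 h. F52B11.2, next to noah-2, had r = 0.62 and a peak at 2 h, and baz-2, near fbn-1, r = 0.54 and a peak at 0 h. cdc-7, next to noah-1, peaked at 10 h with r = -0.96, and col-133, on the other side of noah-2, at 6 h with r = -0.79.

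In late xe31 the precuticle genes lay above WT of the same hour. noah-1 stood at 39.2, 23.3, 16.2, 10.3 and 8.30 CPM in xe31 from 6 h to 10 h and at 17.3, 11.3, 7.34, 5.27 and 6.53 in WT. noah-2 stood at 37.5, 24.4, 21.9, 19.4 and 15.1 CPM in xe31 and at 17.2, 12.2, 13.9, 13.9 and 14.01 in WT. lpr-3 stood at 20.9, 9.32, 5.48, 3.10 and 1.94 CPM in xe31 and at 8.66, 4.88, 2.54, 0.901 and 1.13 in WT. All 3 genes were higher in xe31 in 5 of 5 hours, while the ranges of the strains over the window overlapped.

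fbn-1 stood at 3.69, 3.27, 2.96, 2.69 and 2.56 CPM in xe31 and at 1.35, 1.66, 1.93, 1.57 and 1.27 in WT, so the strains did not overlap. let-653 stood at 4.12, 7.42, 9.75, 15.6 and 19.4 CPM in xe31, above WT in 5 of 5 hours, and both strains were higher at 10 h than at 6 h. Of all genes tested, 28.6% were higher in xe31 in each of the 5 hours.

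In the fit over all genes 4 of the 5 rose in late xe31, against 17.3% of 17123 genes tested. lpr-3 rose by 1.07 ± 0.28 (log2 ± SE, adjusted p = 0.0116), fbn-1 by 0.87 ± 0.18 (0.00312), noah-1 by 0.85 ± 0.24 (0.0155) and let-653 by 0.70 ± 0.17 (0.00638, edgeR with BH adjustment). noah-2 stood at 0.58 ± 0.24 (adjusted p = 0.0751). Against WT 1 hour earlier lpr-3 stood at 0.39, noah-1 at 0.49 and noah-2 at 0.44 and none of these was called, while against WT 1 hour later let-653 stood at 0.06. Without hour as a block, which leaves the course of 6 h to 10 h in the error, none was called. Without the 8 h libraries the call of noah-1 was lost (adjusted p = 0.051), and without those of 5 h noah-2 was called (0.00983), as it was without 3 h (0.0389).

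**Figure D2:**
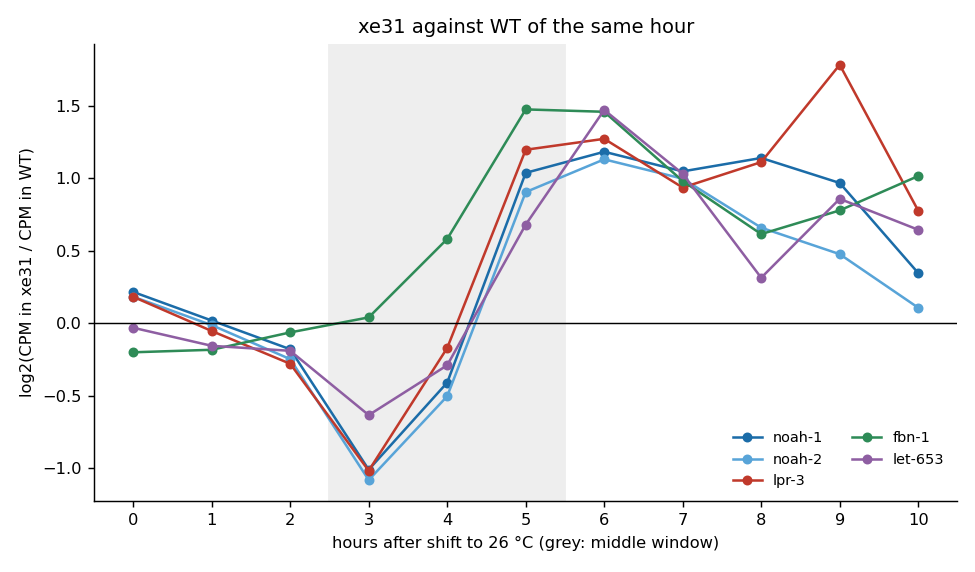
log2 ratio of CPM in xe31 over WT of the same hour for each precuticle gene, against hours after the shift, 1 pair of libraries per hour. noah-1, noah-2 and lpr-3 dip to about -1 at 3 h, and all 5 genes lie above 0 from 5 h to 10 h.

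Early and middle hours differed from this. At 3 h noah-1 stood at 225.9 CPM in xe31 and 454.4 in WT, noah-2 at 221.2 and 467.4, lpr-3 at 113.4 and 229.1 and let-653 at 16.5 and 25.6. fbn-1 was level at that hour, with 14.6 CPM in xe31 and 14.2 in WT. At 5 h all 5 lay above WT, with log2 ratios from 0.68 for let-653 to 1.47 for fbn-1. The sign of 4 of them thus turned inside the middle window (3 to 5 h).

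None of the 5 was called there, against 15.5% of genes called up or down (edgeR, BH-adjusted p from 0.139 for fbn-1 to 0.808 for lpr-3), and 1 had an unadjusted p under 0.05. All 5 were called down against WT 1 hour earlier, with log2 values from -2.29 to -1.15, and all 5 up against WT 1 hour later, from 1.21 to 1.77. Without the 5 h libraries noah-1 (-0.81), noah-2 (-0.89) and lpr-3 (-0.70) fell, and without those of 3 h fbn-1 (0.86) rose. In the early window none was called, against 7.69% of genes, with adjusted p from 0.574 to 0.981 and none with an unadjusted p under 0.05. DESeq2 called fbn-1 in the middle window and none in the early one.

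The late effect minus the early effect was tested itself. It was above 0 for fbn-1 (1.08 ± 0.24, adjusted p = 0.0104) and let-653 (0.89 ± 0.25, 0.029), so 2 of 5 were called up, against 5.71% of genes (edgeR, BH). lpr-3 stood at 1.18 ± 0.40 (adjusted p = 0.0611), noah-1 at 0.90 ± 0.37 (0.114) and noah-2 at 0.67 ± 0.37 (0.242). The call of let-653 was lost without the libraries of 0 h, 1 h, 2 h, 7 h or 9 h, each taken alone. Without 5 h lpr-3 and noah-1 were called too, and without 3 h lpr-3 was.

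The deep libraries held 371 to 12615 counts of each gene. At 6 h noah-1 stood at 51.8 CPM in xe31 and 23.6 in WT, noah-2 at 41.4 and 19.7, lpr-3 at 25.1 and 11.2, fbn-1 at 3.89 and 1.80 and let-653 at 4.34 and 1.94. At 10 h the pairs were closer, at 9.67 and 7.99 CPM for noah-1, 16.5 and 16.1 for noah-2, 2.49 and 1.56 for lpr-3, 2.59 and 1.47 for fbn-1 and 18.5 and 11.8 for let-653. The xe31 library was the higher one in all 10 pairs, by 2.10-fold to 2.24-fold at 6 h. For noah-2 at 10 h the log2 ratio was 0.04, with an exact binomial 95% interval of -0.03 to 0.10 that covers counting error only, and lay below the median of 0.11 over all genes, so this pair gives no direction.

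No gene at all was called in this fit (0% of 18213, edgeR with BH), which has 1 residual degree of freedom, and 2099 genes, 3 of the 5 among them, had an unadjusted p under 0.05. The log2 change was 0.87 ± 0.24 for fbn-1, 0.83 ± 0.21 for lpr-3, 0.80 ± 0.21 for let-653, 0.61 ± 0.26 for noah-1 and 0.46 ± 0.30 for noah-2 (BH-adjusted p from 0.34 to 0.598). DESeq2 called fbn-1, let-653 and lpr-3 among 1339 genes up.

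The catalytic-dead strain held far more of these transcripts than its WT. noah-1 stood at 610.1 CPM at 6 h and 307.6 at 10 h, against 11.7 and 8.11 in WT. noah-2 stood at 308.04 and 120.8 CPM, against 12.9 and 12.7. lpr-3 stood at 259.1 and 95.8 CPM, against 4.03 and 1.34. The mutant values exceeded WT at both hours, and all 3 were lower at 10 h than at 6 h.

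fbn-1 stood at 148.9 and 59.04 CPM in the mutant, against 2.14 and 1.65. let-653 stood at 103.7 and 81.6 CPM, against 3.93 and 10.3, so its fold went from 26.4 at 6 h to 7.96 at 10 h. For lpr-3 the fold was 64.2 and 71.5, for fbn-1 69.6 and 35.7, for noah-1 52.1 and 37.9 and for noah-2 23.9 and 9.50.

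Of the 5, 3 rose by the test, against 0.697% of 17212 genes: lpr-3 by 5.77 ± 0.36 (log2 ± SE, adjusted p = 0.0335), noah-1 by 5.16 ± 0.38 (0.038) and fbn-1 by 5.33 ± 0.53 (0.0454, edgeR with BH). noah-2 stood at 3.60 ± 0.53 (adjusted p = 0.0537) and let-653 at 3.54 ± 0.65 (0.0603). With RLE size factors or DESeq2 all 5 were called, where 897 and 2100 genes rose, against 120 here. The fit has 1 residual degree of freedom. By size of the rise lpr-3 ranked 501, fbn-1 598, noah-1 654, noah-2 1372 and let-653 1400 among the 17212 genes.

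Set beside the WT time course of the other experiment, the mutant libraries held 40.2% of the highest WT level of noah-1 at 6 h and 20.3% at 10 h. For let-653 these shares were 42.2% and 33.3%, for fbn-1 35.5% and 14.1%, for lpr-3 20.4% and 7.53% and for noah-2 19.9% and 7.79%. The 6 h level of noah-1 lay between WT of 2 h and 3 h, that of noah-2 between 3 h and 4 h and that of fbn-1 between 1 h and 2 h. WT itself differed between the experiments. At 6 h WT beside the mutant over time-course WT was 2.64 for let-653, 1.59 for fbn-1, 0.750 for noah-2, 0.677 for noah-1 and 0.466 for lpr-3. At 10 h it ran from 0.826 for let-653 to 1.31 for fbn-1. The shares and placements above include such differences.

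The proportions among the genes also differed. noah-2 had 50.5 counts per 100 noah-1 counts in the mutant at 6 h and 39.3 at 10 h, against 110.0 and 156.8 in its WT and no less than 91.9 in the time course and 79.9 in the deep libraries. Controls of the RNAi experiments also had lower shares, 66.9 in the polyA mock and 44.6 in the rRNA-depleted mock library. lpr-3 had 42.5 and 31.1 per 100, against 34.5 and 16.5, and fbn-1 24.4 and 19.2, against 18.3 and 20.4. let-653 had 17.00 and 26.5, against 33.6 and 126.5.

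Marker levels of some other tissues also differed between these libraries, although few of their genes were called. Of 7 sperm genes 1 fell, against 0.465% of all genes, and of 7 epidermal genes 1 (dpy-7) rose, against 0.697% of all genes. None of 8 germline and oocyte or 8 neuronal genes was called, which with so few calls over all genes says little. The summed level of 7 sperm genes was 77.0 and 190.9 CPM in the mutant and 581.5 and 388.1 in its WT, and that of 8 germline and oocyte genes 1553 and 1958 against 3447 and 6546. That of 7 epidermal genes was 1227 and 1164 CPM against 921.05 and 614.7, or 1067 and 1109 against 919.05 and 613.996 without dpy-7, and that of 8 neuronal genes 656.4 and 626.3 against 398.4 and 358.4. No gene of these lists was at 0 in both libraries of a strain. For 8 body wall muscle and 7 intestinal genes the median log2 change was 0.08 and -0.17, against 0.09 over all genes, with 0 called. Whether fewer cells of a type or less RNA per cell lies behind such sums cannot be told apart in whole animals, and their part in the result was not tested.

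The difference between the catalytic-dead effect and the deep xe31 effect, each against its own WT, was 4.95 ± 0.33 for lpr-3, 4.56 ± 0.48 for noah-1, 4.47 ± 0.56 for fbn-1, 3.15 ± 0.73 for noah-2 and 2.75 ± 0.79 for let-653 on the log2 scale. None of the 5 was called up, where 0.00528% of 18925 genes were (edgeR, BH-adjusted p from 0.0524 to 0.183), although all 5 had an unadjusted p under 0.05. DESeq2 called all 5, among 1317 genes up.

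After xrn-2 RNAi all 5 transcripts were far more abundant in polyA RNA than in mock. noah-1 stood at 1141 CPM after xrn-2 RNAi and 10.04 in mock, noah-2 at 744.2 and 6.72, lpr-3 at 544.8 and 3.10, fbn-1 at 590.8 and 2.93 and let-653 at 158.7 and 1.43. The mock library lay within the range of late WT hours for noah-1 and lpr-3 below it for noah-2 and let-653 and above it for fbn-1.

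The log2 ratio, with a pseudocount of 1 count, was 7.64 for fbn-1 (exact binomial 95% interval 7.38 to 7.94), 7.45 for lpr-3 (7.19 to 7.74), 6.82 for noah-1 (6.68 to 6.98), 6.79 for noah-2 (6.61 to 6.98) and 6.77 for let-653 (6.41 to 7.22). The intervals cover counting error only, and 1 library per treatment allows no test. All 5 exceeded 64-fold, as 1.19% of 13970 genes with at least 100 counts did, and 25.4% exceeded 2-fold. The median over those genes was 0.37, so the 5 stood 6.40 to 7.27 above it. fbn-1 had 51.8 counts per 100 noah-1 counts after RNAi and 29.2 in mock, and lpr-3 47.8 and 30.9, while noah-2 had 65.2 and 66.9 and let-653 13.9 and 14.2.

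After rRNA depletion the 2 libraries labelled xrn-2 RNAi differed from each other. noah-1 stood at 165.7 CPM in replicate 1 and 596.8 in replicate 2, against 9.90 in mock. noah-2 stood at 62.3 and 276.8 against 4.41, lpr-3 at 27.4 and 156.1 against 2.59, fbn-1 at 48.6 and 206.5 against 6.29 and let-653 at 13.6 and 44.3 against 0.847. Both libraries lay above mock for every gene, and replicate 2 above replicate 1.

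With 1 mock library, the error comes from the 2 RNAi libraries alone and mock is assumed to vary like them. The log2 change was 4.98 ± 1.04 for noah-1, 4.98 ± 1.18 for noah-2, 4.87 ± 1.34 for lpr-3, 4.80 ± 1.03 for let-653 and 4.06 ± 1.09 for fbn-1 (edgeR, BH-adjusted p from 0.138 to 0.199). No gene was called (0% of 15917), and 2334 genes, all 5 among them, had an unadjusted p under 0.05. DESeq2, under the same assumption, called all 5, among 743 genes up.

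Sums of tissue markers in these pairs were as follows. In polyA RNA the sperm sum was 448.6 CPM after RNAi and 591.4 in mock, the germline and oocyte sum 1420 and 3002 and the neuronal sum 598.2 and 312.6. The epidermal sum was 1578 and 1623 CPM, but 1297 and 1621 without dpy-7, which alone stood at 281.0 and 1.56. After rRNA depletion the epidermal sum was 2171 and 2102 CPM against 2030 in mock, or 2156 and 2001 against 2028 without dpy-7. The germline and oocyte sum was 3350 and 2126 CPM against 2669 after rRNA depletion. The median log2 change there was -0.02 for 8 neuronal genes and -0.05 for 7 sperm genes, against 0.03 over all genes. The sum of 7 intestinal genes was 1887 and 2303 CPM against 3532 there, with none called and a median log2 change of -0.85 against 0.03 over all genes, and 4026 against 7027 in polyA RNA. Their part in the result was not tested.

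**Figure D3:**
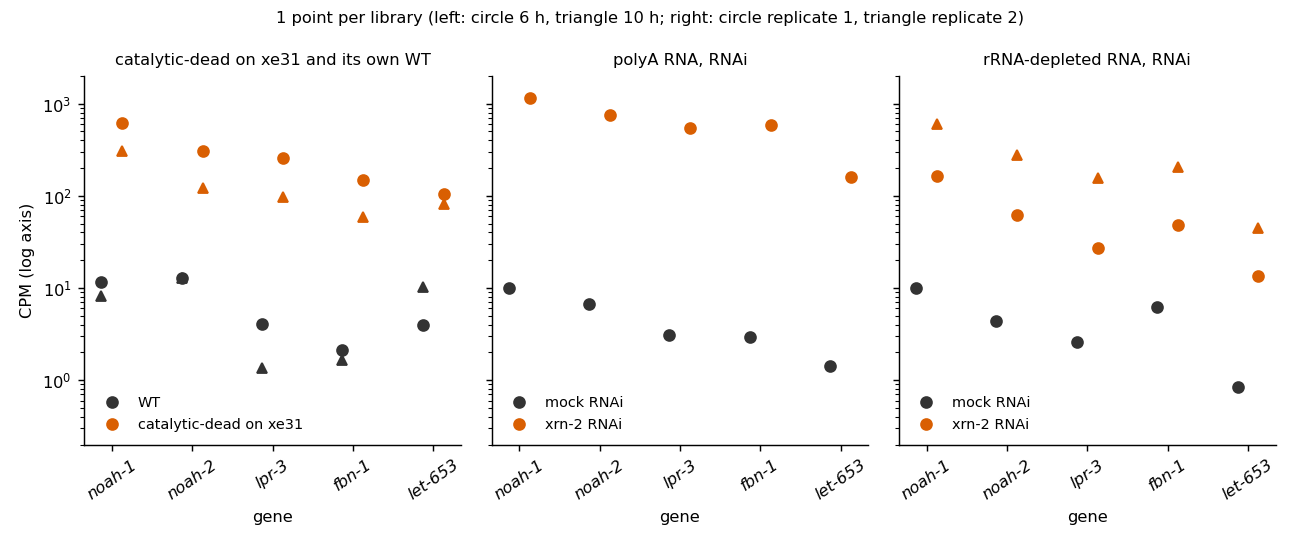
CPM (log axis) of each precuticle gene in the catalytic-dead experiment (left), polyA RNAi (middle) and rRNA-depleted RNAi (right), 1 point per library, controls in black. Every orange point lies above the control points of its gene, and the rRNA-depleted replicates lie apart.

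Counts in a downstream window of unstated length measured whether reads past the gene end rose more than the gene. Of the 5 genes 4 reached 20 downstream counts in the time course, and lpr-3 held 0 in WT and 2 in xe31 over all hours. In late libraries noah-1 had 62 downstream counts in WT and 93 in xe31, or 2.37 and 1.79 per 100 gene counts. fbn-1 had 44 and 64, or 10.6 and 7.96 per 100, and let-653 had 6 and 21, or 0.337 and 0.712 per 100. None of the 4 was called up, against 48.1% of 11263 genes (edgeR, BH-adjusted p from 0.111 to 0.533). In WT the noah-1 window held 4 counts at 0 h and 17 at 10 h, while the gene fell from 61691 to 340 counts. The fbn-1 window held 2 and 3 counts at these hours, while the gene fell from 19686 to 66. Such windows did not fall with their genes, so the ratios also move with the gene level. The lack of a call therefore does not show that readthrough was absent.

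The downstream window of noah-2 also followed another course than its gene. In WT the window held 48, 17 and 22 counts from 0 h to 2 h, when the gene held 58019, 69909 and 51115, then 104, 299 and 695 at 3 h to 5 h, 1421 at 6 h, 1325 at 7 h and 172 at 10 h. col-133, the collagen gene next in order, held 4832 counts at 0 h, 1206 at 1 h, 143031 at 6 h and 8082 at 10 h. The window thus held 0.846 to 2.13 counts per 100 col-133 counts in the 11 WT libraries, while per 100 noah-2 counts it ran from 0.0243 to 187.4.

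**Figure D4:**
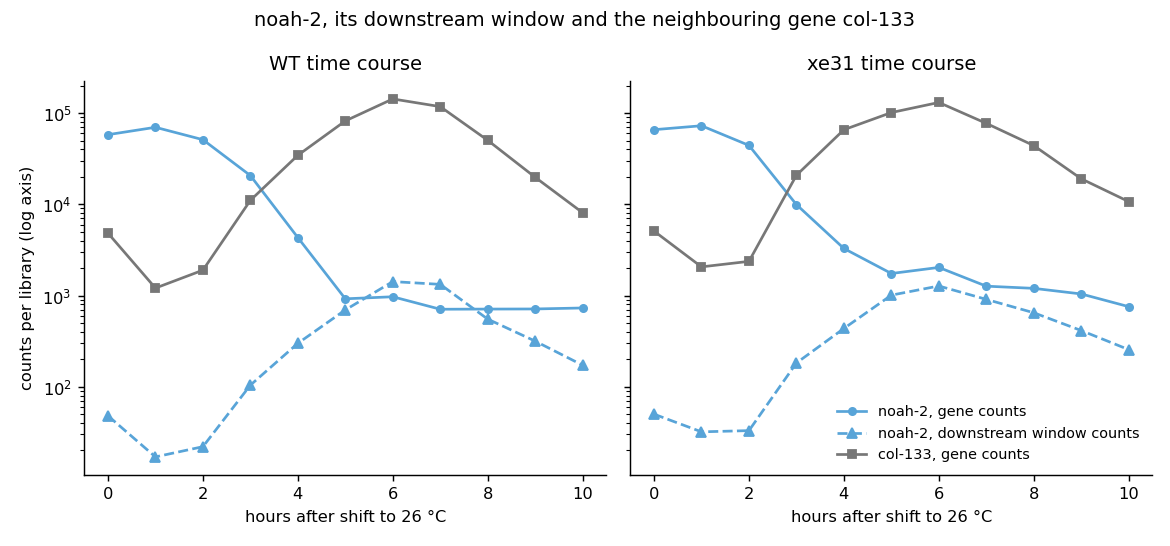
Counts per library (log axis) of noah-2, of its downstream window and of the neighbouring gene col-133 against hours after the shift, in WT (left) and xe31 (right). The window counts rise to 6 h and fall again with col-133, while noah-2 falls.

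In the catalytic-dead libraries the window of noah-2 held 419 and 436 counts, although col-133 had 1824 and 5110, or 22.97 and 8.53 per 100 col-133 counts, against 0.973 and 3.99 in WT. Per 100 noah-2 counts it held 2.42 and 7.27 there and 112.3 and 11.1 in WT. The change of the ratio was -3.12 ± 1.26 (edgeR, BH-adjusted p = 0.0887), which sets the window against noah-2 and not against col-133. After polyA RNAi the window held 336 counts beside 1133 of col-133, or 29.7 per 100, and in mock 657 beside 65638, or 1.00 per 100. After rRNA depletion it held 4.51 and 7.33 per 100 col-133 counts in the libraries labelled xrn-2 RNAi and 1.13 in mock.

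let-653 was the 1 gene of the 4 tested whose downstream ratio was called up in the catalytic-dead strain, against 46.3% of 10972 genes. Its window held 0 counts in both WT libraries beside 292 and 521 gene counts, and 94 and 131 in the mutant beside 5842 and 4052. With 3 counts over the group as the floor, the ratio was at least 6.16-fold higher (edgeR, BH-adjusted p = 0.0171). With upstream counts as the reference let-653 was not called (edgeR, BH-adjusted p = 1). noah-1 had 14 and 9 downstream counts in WT and 1374 and 606 in the mutant, or 1.79 and 3.99 per 100 gene counts (log2 1.08 ± 0.60, adjusted p = 0.187), and fbn-1 11.9 and 6.22 per 100 (-0.73 ± 0.67, 0.418).

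lpr-3 held 0 downstream counts in WT and 9 and 6 in the mutant. After rRNA depletion its window held 15 counts in mock and 118 and 788 in the libraries labelled xrn-2 RNAi, or 25.9 per 100 gene counts in mock and 21.01 over both others, against 0.0412 per 100 in polyA RNA after RNAi. In the deep libraries let-653 had 6 downstream counts in WT and 53 in xe31 (log2 2.10 ± 0.82, BH-adjusted p = 0.178), in a fit that called no gene (0% of 13419, edgeR), with 4183 genes and none of the 4 tested under an unadjusted p of 0.05. The window upstream held at most 51 counts of any of the 5 genes in any library, and none was tested there. For let-653 it held 35 and 51 counts in the catalytic-dead libraries and 0 in both WT libraries beside them. In the deep libraries it held 12 and 39 counts in xe31 and 4 and 0 in WT, at 6 h and 10 h.

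Other matrix genes were read against lists chosen with earlier results of these data known. Of 14 lipocalin-related, leucine-rich repeat and ZP-domain matrix genes, 8 fell and 1 rose from early to late WT hours, against 29.9% and 30.1% of all genes, with a median log2 change of -1.58. In late xe31 5 rose and 0 fell, against 17.3% and 20.8% of all genes (median 0.23, against -0.03), among them lpr-1, a lipocalin of the excretory tube (2.23 ± 0.33, adjusted p = 0.000336), lpr-4 (1.02 ± 0.33, 0.0293) and lpr-5 (0.89 ± 0.25, 0.0157, edgeR with BH). In the catalytic-dead strain 2 of the 14 rose, against 0.697% of all genes, lpr-1 by 5.68 ± 0.52 and sym-1 by 4.00 ± 0.33, and the median was 2.13, against 0.09 over all genes.

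Of 14 genes of matrix processing and apical trafficking, 4 rose and 3 fell in late xe31, against 17.3% and 20.8% of all genes. The share that fell was near that of all genes, and the share that rose was above it. The largest rises were mlt-11, a protease inhibitor with Kunitz domains (1.73 ± 0.33, adjusted p = 0.0016), mlt-4 (1.39 ± 0.15, 3.68e-05) and the patched-related gene ptr-4 (0.92 ± 0.29, 0.027, edgeR with BH), and the falls were the endocytic genes nekl-2, nekl-3 and dab-1. Of 10 regulators of the molting cycle 2 rose and 0 fell, so the share that rose was near that of all genes. The nuclear receptor nhr-23 rose by 0.11 ± 0.04 (adjusted p = 0.0412) and blmp-1 by 0.27 ± 0.09 (0.0254, edgeR with BH). Over the WT course 10 of the 14 processing genes and 7 of the 10 regulators fell, against 29.9% of all genes, with medians of -1.81 and -2.06. In the catalytic-dead strain 2 of the 14 processing genes rose, mlt-11 by 6.76 ± 0.57 and ptr-4 by 5.65 ± 0.51, as did 1 of the 10 regulators, the period-related gene lin-42, by 3.44 ± 0.39 (edgeR, BH-adjusted p of 0.0471 or less), against 0.697% of all genes. The medians were 0.46 and 1.72, against 0.09. In late xe31 4 of 7 sperm genes rose, against 17.3% of all genes, and 8 of 8 germline and oocyte genes fell, against 20.8%, and their part in the rises above was not tested.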

How the data were processed

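The authors deposited whole-number read counts for each gene and for windows on either side of it, per the file headers. Reads were placed on ce10, the build named by the submitters' processing notes. The sources used here name no aligner, counter, strand setting or window length, so overlapping genes, antisense genes and close copies, such as other lipocalins, may share reads. Per the labels' protocols, libraries came from a polyA-selecting kit or, with rRNA depleted, from NuGEN Ovation Universal.

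Columns were matched to strain and hour by name, and 12 columns of another series were not used. The precuticle genes, the lists and the windows of hours were chosen with earlier results of these data known. Symbols were matched for 95.8% of gene IDs. Named genes are the 5 with counts, xrn-2, for each of the 5 the 3 genes of highest r, up to 3 called genes per list with the largest late change, and nearest protein-coding neighbours. The falls among processing genes, the list genes called in the catalytic-dead strain and the neighbours in the second place (clc-1, VZK822L.2, baz-2) were named after their values were seen.

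The main test was edgeR 4.0.16 (quasi-likelihood, R 4.3.3) on counts, with TMM, filterByExpr at a minimum count of 10, Benjamini-Hochberg (BH) adjustment over all genes tested and a threshold of 0.05. All 5 genes passed this filter in every fit. The time-course model held hour as a block with 1 strain effect per window (8 residual degrees of freedom), the course within a strain 6 group means (16). The catalytic-dead, deep and rRNA-depleted fits had 1 and the difference of effects 2. No label states that libraries are separate cultures, so p-values reflect the spread among libraries alone, which may be technical. Readthrough was fitted from downstream and gene counts in 1 model, over genes reaching 20 downstream counts and averaging 10 gene counts. Most fits were tried on simulated counts, with 1 spread for all genes and no course over hours beyond the changes put in. The readthrough fit of the deep libraries and the upstream fit were not simulated. Nor were the early, middle and late minus early strain effects and the WT course scored. DESeq2 1.42.0 was an alternative. Gene order came from RefSeq. No sequence of these genes was in the tables used, so none is printed and the planned promoter motif search was not run.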

Additional observations from a re-analysis of the deposited data

Results flagged for a closer look

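The strain effect of fbn-1 and of let-653 differed between windows of hours by the test of the difference itself. Late minus early it was 1.08 on the log2 scale for fbn-1, which lay below WT in 3 of 3 early hours and above it in 5 of 5 late hours (edgeR, BH-adjusted p = 0.0104). For let-653 it was 0.89, with the same counts of hours (edgeR, BH-adjusted p = 0.029).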

How the results depend on the processing

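The falls of all 5 genes from early to late hours were called in both strains in each of the 11 settings that left out 1 hour. Called up in late xe31 were 4 genes, and 3 to 5 with 1 hour left out, 2 against WT 1 hour earlier and 0 with no hour block. Late minus early the count of 2 became 0 with no hour block and 1 to 4 with 1 hour left out. In the middle window the count of 0 up became 1 by DESeq2, 5 against WT 1 hour later and 0 to 1 with 1 hour left out, and that of 0 down became 5 against WT 1 hour earlier and 0 to 3 with 1 hour left out. In the catalytic-dead strain the count of 3 became 5 with RLE, with DESeq2 and without the low-count filter. For catalytic-dead minus xe31 the count of 0 became 5 by DESeq2 and 1 without that filter. DESeq2 called 5 after rRNA depletion and 3 in the deep libraries, where edgeR called 0. With upstream counts as the reference the readthrough count of 1 in the catalytic-dead strain became 0, with let-653 the 1 gene tested.

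In the middle window fbn-1 stood at -1.15 against WT 1 hour earlier, and against WT 1 hour later let-653 stood at 1.21, lpr-3 at 1.54, noah-1 at 1.42 and noah-2 at 1.33. Without 3 h let-653 stood at 0.0249, lpr-3 at 0.40, noah-1 at 0.21 and noah-2 at 0.10. In the early window, without 2 h, lpr-3 stood at 0.0226, noah-1 at 0.0755 and noah-2 at 0.0431, and the change of xrn-2 over the xe31 course at -0.14. In the deep libraries noah-2 stood at -0.10 without 6 h, and the readthrough of let-653 at -0.92 with upstream counts as the reference (edgeR, BH-adjusted p = 0.716). The cause of these shifts was not tested. Without 10 h the late downstream ratio of noah-2 fell by 0.83 (edgeR, BH-adjusted p = 0.0143), and let-653 had too few downstream counts. The ratio of noah-2 sets its window against noah-2 and not against col-133, whose course the window followed. The upstream windows gave no test and no alternative. No paired analysis was possible because the RNA groups compared share fewer than 2 replicate numbers in the labels. Libraries were matched by hour instead, which is the block of the main fits. The sum of epidermal markers without dpy-7 was added after seeing the data. Downstream counts were few for let-653 and lpr-3, with 10 and 0 in all WT time-course hours and 6 and 0 in the deep WT libraries.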

Other observations

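The 14 genes picked for a WT course most like one of the precuticle genes were also read in the catalytic-dead experiment, whose libraries did not enter that choice. Of these, 5 rose and 0 fell, against 0.697% of all genes called up. They were the collagens dpy-7 (log2 5.99 ± 0.41, adjusted p = 0.037), dpy-3 (6.92 ± 0.81, 0.049) and col-176 (6.21 ± 0.43, 0.037), the hedgehog-related wrt-10 (6.08 ± 0.39, 0.0338) and F23H12.5 (7.16 ± 0.47, 0.0338, edgeR with BH). The others were not called. F33H2.8 stood at 5.68 ± 0.69 (adjusted p = 0.0521, edgeR with BH), lpr-4 at 4.98 ± 0.72 (0.0537) and lpr-5 at 3.99 ± 0.60 (0.0537). R57.2 stood at 2.67 ± 1.20, aff-1 at 2.57 ± 0.57, mab-21 at 2.06 ± 0.61 and C14C6.2 at 1.66 ± 0.39. cpd-1, the gene most like let-653, stood at 0.63 ± 0.48 (adjusted p = 0.423), and sucl-1, like fbn-1, at -0.31 ± 0.36 (0.589).

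The same RNA gave somewhat different levels of some of these genes when sequenced again. Deep over time-course CPM was 1.37 at 6 h and 1.22 at 10 h for noah-1 in WT, and 1.32 and 1.17 in xe31. For noah-2 these ratios were 1.15 and 1.15 in WT and 1.10 and 1.09 in xe31. lpr-3 had 1.29 and 1.37 in WT and 1.20 and 1.28 in xe31. fbn-1 had 1.33 and 1.16 in WT and 1.05 and 1.01 in xe31, and let-653 1.304 and 0.953 in WT and 1.05 and 0.951 in xe31.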
